A study of Mus musculus with 4 samples.

Results

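Fibroblasts that carried many transcripts of *Cxcl13* and fibroblasts that carried none were compared within 1 sorted population, the tdTomato+ eGFPneg cells, where both kinds of cell went through the same sort and the same library. The cells were chosen by their measured *Cxcl13* count: 1074 cells with 10 or more *Cxcl13* UMIs, called Cxcl13-high, and 861 cells with 0, called Cxcl13-zero, together 1935 of the 2922 cells that passed the filters, of 5299 cells in the library and of 24489 in the series. A UMI (unique molecular identifier) marks 1 captured transcript. The 4 populations came from B16-F1-OVA melanomas, made by injecting 400000 tumor cells into the peritoneum of Cxcl13-cre-tdTomato X R26R-eGFPflox mice, host strain C57Bl/6, and taken on day 14. Cells negative for CD45 and CD31 and high in podoplanin (PDPN), called cancer-associated fibroblasts (CAF), were sorted by both reporters and made into a single 10x Genomics 3′ library per population. All animals carried both transgenes and all had tumors. The *Cxcl13* promoter drives tdTomato and cre, and eGFP follows once cre has removed a stop, so tdTomato reads the promoter and eGFP also marks cells in which it was active earlier. The number and age of the animals are not given in the sources used here, both sexes were used, and the populations may come from the same tumors.

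CXCL13 is the ligand of CXCR5, a receptor through which B cells and follicular helper T cells find their way into lymphoid follicles. In lymph nodes it is made by follicular dendritic cells and by marginal reticular cells, both of them stromal cells, and signals through the lymphotoxin and TNF receptors are known to induce it. Fibroblasts that make CXCL13 in inflamed or tumor tissue are studied because lymphocyte aggregates resembling follicles, called tertiary lymphoid structures, form near them.

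The 250 bases before the transcription start of 3 chemokine genes are shown because the comparison turned on them: *Cxcl13*, by which the cells were chosen, *Cxcl10*, which was higher in Cxcl13-high cells, and *Cxcl9*, which was lower. They were read from RefSeq for GRCm38.p6, not the build of the deposited counts, and lie at chr5:95956689-95956938 on the plus strand, chr5:92348890-92349139 on the minus strand and chr5:92328080-92328329 on the minus strand. Capitals mark any match on either strand to TATAAA (the TATA box), to GGGA and TTCC with 2 bases of any kind between them (bound by NF-kB) or to TTTC and TTTC with 2 such bases between them (the interferon-stimulated response element, ISRE).
Cxcl13: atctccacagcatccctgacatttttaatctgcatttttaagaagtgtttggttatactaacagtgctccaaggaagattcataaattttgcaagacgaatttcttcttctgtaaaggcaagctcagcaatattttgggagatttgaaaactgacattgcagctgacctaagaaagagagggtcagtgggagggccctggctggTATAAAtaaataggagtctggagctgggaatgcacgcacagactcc
Cxcl10: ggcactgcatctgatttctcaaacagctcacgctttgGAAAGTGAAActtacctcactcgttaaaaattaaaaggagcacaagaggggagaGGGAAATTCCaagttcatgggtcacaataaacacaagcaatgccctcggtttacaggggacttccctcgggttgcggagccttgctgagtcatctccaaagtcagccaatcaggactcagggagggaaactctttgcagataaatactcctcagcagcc
Cxcl9: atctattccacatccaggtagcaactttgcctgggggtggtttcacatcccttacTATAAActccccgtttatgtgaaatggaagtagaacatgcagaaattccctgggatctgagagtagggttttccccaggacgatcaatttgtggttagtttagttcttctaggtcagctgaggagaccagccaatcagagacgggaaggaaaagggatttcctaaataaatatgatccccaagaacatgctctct
In the window of *Cxcl13* TATAAA began 46 bases before the start. The *Cxcl10* window held GGGAAATTCC 159 bases before the start and GAAAGTGAAA, an ISRE match on the other strand, 213 bases before it. In the *Cxcl9* window TATAAA began 195 bases before the start. Among 32851 RefSeq mouse promoter windows of this length, 12.4% held TATAAA, 1.21% the NF-kB letters and 2.98% the ISRE letters. Among the genes compared here, 5885 of 7372 had a window, and the shares were 7.77%, 1.46% and 3.5%. Of the 114 genes higher in Cxcl13-high cells, 86 had a window, of which 13 held TATAAA, 4 the NF-kB letters and 8 the ISRE letters, and of the 172 lower genes 113 had one, with 24, 1 and 4. These counts describe letters in a window.

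The label was checked against the cells. The filter required collagen transcripts (*Col1a1*, *Col1a2* and *Col3a1* together 3 UMIs or more), of which the median Cxcl13-high and Cxcl13-zero cell held 181 and 234. *Pdgfra*, a growth factor receptor of fibroblasts, was found in 89.6% of Cxcl13-high and 77.1% of Cxcl13-zero cells. A list of 21 mesothelial genes had 3 or more UMIs in 89.2% and 79.2%, so the filter did not leave out cells with mesothelial transcripts. *Pdpn*, the antigen of the sort, was found in 86.5% and 81.6%, and *Dcn*, the proteoglycan decorin, in 100% and 99.5%. Transcripts of the tdTomato and eGFP reporters are not in the gene list of the files, so the sort could not be read back from RNA. The groups were alike in depth, with medians of 9398 and 9179 UMIs and 2849 and 2802 genes per cell, and mitochondrial genes took a median of 0.898% and 0.80% of UMIs. *Xist*, the X inactivation transcript, was found in 43.7% of Cxcl13-high and 41.1% of Cxcl13-zero cells and genes of the Y chromosome in 23.8% and 25.1%, so both sexes were mixed in the library in similar shares. Of its 5299 barcodes 36 were also in another library, 16 of them in the compared cells.

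*Cxcl13* itself, the value by which the cells were chosen, is described without a test. The Cxcl13-high cells carried from 10 to 825 *Cxcl13* UMIs, with quartiles of 18, 34 and 73, and 186 of them carried 100 or more. The transcript was thus spread over a wide range in 36.8% of the kept cells (95% interval 35 to 38.5), while 29.5% (27.8 to 31.2) had none and 987 cells lay between. Just inside the threshold stood 41 cells with exactly 10 UMIs and just outside it 43 cells with 9, and 370 cells stood next to the Cxcl13-zero group with 1. Of the 68082 *Cxcl13* UMIs in kept cells, 95.3% were in Cxcl13-high cells, where the gene reached 6279 counts per 1000000 UMIs (CPM; 6231 to 6327), or 0.628% of all UMIs. Intervals throughout are exact 95% intervals (Poisson for CPM, Clopper-Pearson for shares) and cover counting error only.

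A single *Cxcl13* UMI need not show that a cell makes the transcript. In the same library *Cxcl13* was found in 57.6% (46.4 to 68.3) of 85 cells with a UMI of *Ptprc*, the leukocyte antigen CD45, at a median of 9608 UMIs, and 22 of them carried 10 or more *Cxcl13* UMIs. Among 12 cells with a UMI of *Pax3*, a melanoma transcription factor, 41.7% had *Cxcl13*, and 1 of them reached 10. Both sets were chosen by that UMI and the limits on genes, mitochondrial UMIs and depth, without the collagen filter. Whether they were fibroblasts, other cells or cells caught together was not tested. Their shares therefore do not show how often a cell that does not make *Cxcl13* carries a UMI of it. In kept cells the share with at least 1 UMI was 70.5% at a median of 9309 UMIs. How much of the low counts was free RNA or cells caught together was not tested, and the threshold of 10 UMIs sets the Cxcl13-high cells above the single UMIs, while 0 UMIs at this depth does not show that a cell lacked the transcript. In the other populations the kept cells held less *Cxcl13*, 1299 CPM in tdTomato+ eGFP+ cells, 215 CPM in tdTomatoneg eGFP+ cells and 201 CPM in tdTomatoneg eGFPneg cells against 2448 CPM here.

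**Figure D1:**
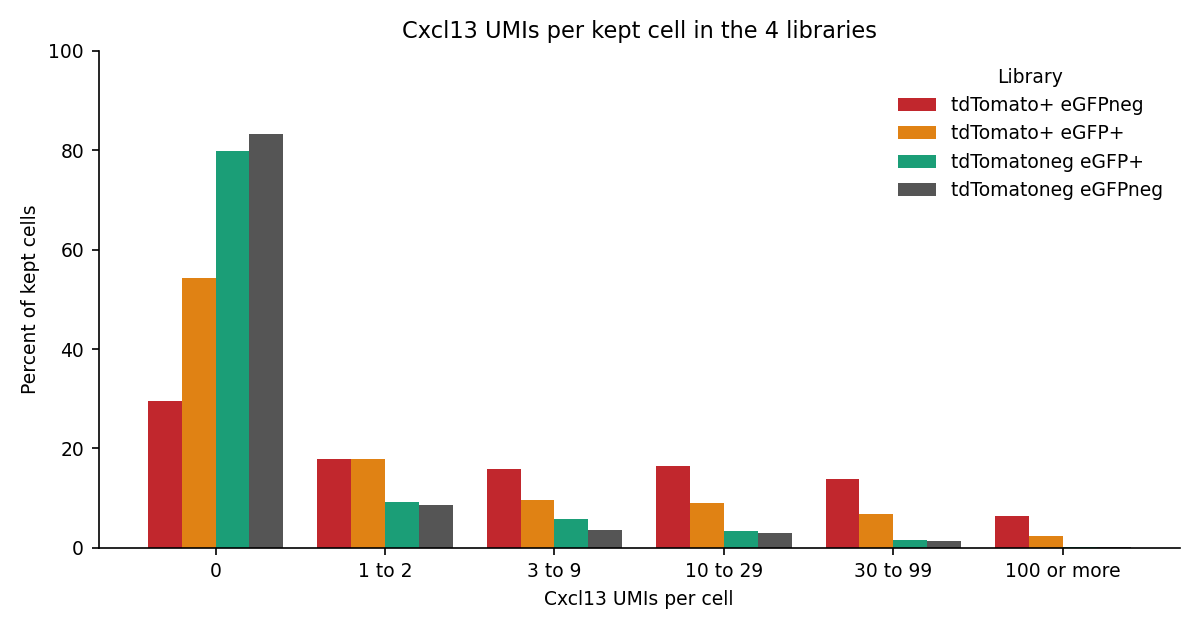
Percent of the kept cells of each of the 4 libraries (vertical) by their number of *Cxcl13* UMIs (horizontal, 6 classes), 1 bar colour per library. In the tdTomato+ eGFPneg library (red) 29.5% of cells had 0 UMIs and 36.8% had 10 or more, and in each other library the class with 0 was the tallest, from 54.4% to 83.3%.

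Which other genes differed between these cells was read from UMIs summed over each group, 10331649 in Cxcl13-high and 8077586 in Cxcl13-zero cells. A log2 fold is the log2 ratio of the CPM in Cxcl13-high cells over that in Cxcl13-zero cells, and a gene is called higher or lower past 1.5-fold. With 1 library there is no spread between replicates and no test, so every fold describes these cells. Of 7372 genes found in at least 10% of the cells of both groups together, 114 were higher (1.55%) and 172 lower (2.33%), and the median log2 fold over all of them was -0.02. Most genes were thus close to equal between cells at both ends of the *Cxcl13* range. The higher genes included *Enpp2*, *Cyp7b1*, *Saa3*, *Cxcl10*, *H2-Aa* and *H2-Eb1*, and the lower genes included *Cthrc1*, *Tnc* and *Inhba*. The shares of 1.55% and 2.33% are the background of every list count that follows, and 46.5% of the compared genes lay above 0.

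**Figure D2:**
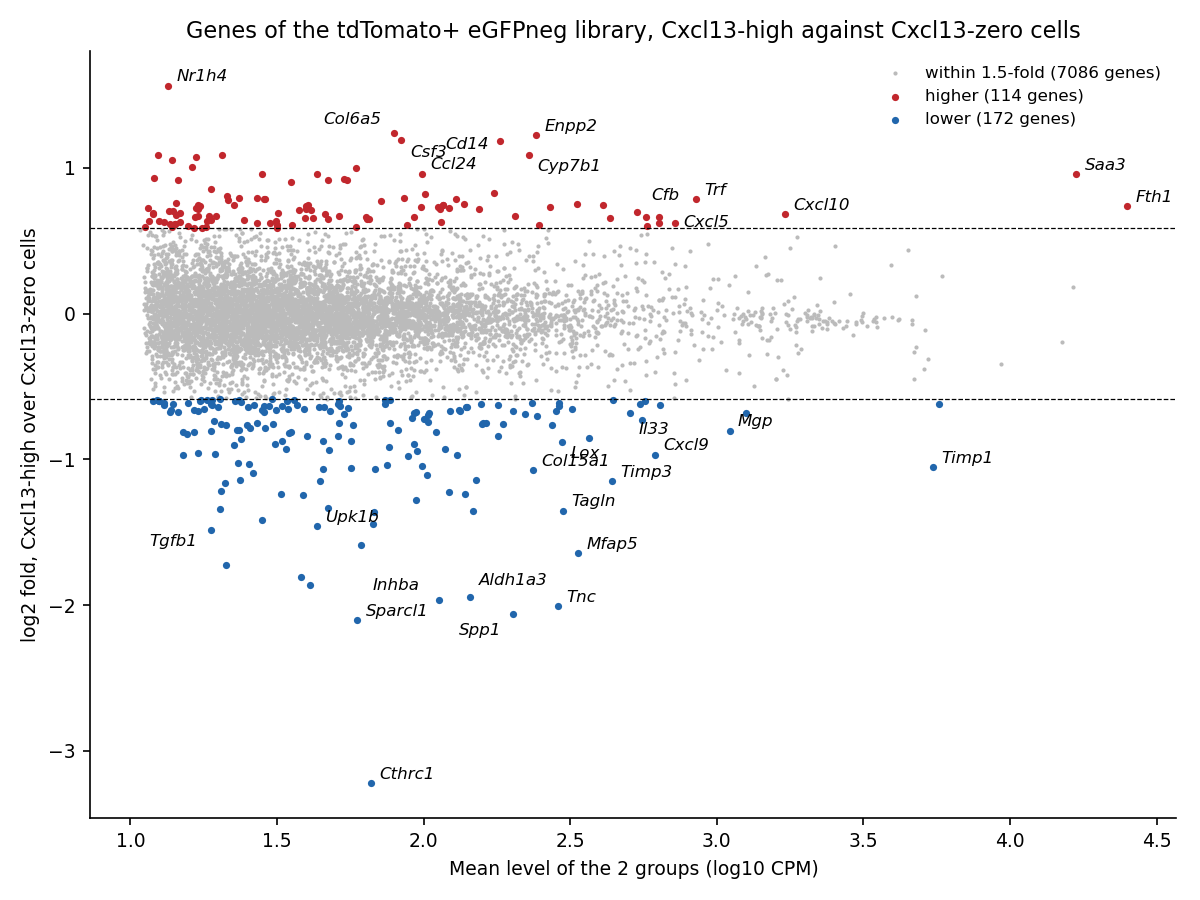
Log2 fold of each of the 7372 compared genes in Cxcl13-high over Cxcl13-zero cells (vertical) against the mean level of both groups (horizontal, log10 CPM), with the 1.5-fold limits as dashed lines. The 114 higher genes are red and the 172 lower genes blue, and *Cthrc1* stands alone at a log2 fold of -3.22.

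Among genes known from lymphoid stroma, *Enpp2*, *Cyp7b1* and *Clu* were higher and *Il33* was lower in Cxcl13-high cells. The list held 21 genes, of which 11 were compared, 3 were higher and 1 lower, where 1.55% and 2.33% of all compared genes were, with a median log2 fold of 0.27. *Enpp2* encodes autotaxin, the secreted enzyme that makes lysophosphatidic acid, a lipid that acts on lymphocyte motility. Its level was 339.7 CPM (329 to 351) in Cxcl13-high and 145 CPM (137 to 154) in Cxcl13-zero cells, a log2 fold of 1.23 (1.13 to 1.32). After each cell was thinned to 5000 UMIs it was found in 64.2% of Cxcl13-high and 36.9% of Cxcl13-zero cells. Scaled to 10000 UMIs, the median cell held 2.14 and 0.707 UMIs, and the 90th percentile was 8.03 and 4.12, so the ranges of single cells overlapped while the whole distribution lay higher. *Cyp7b1* encodes an oxysterol hydroxylase that works after *Ch25h* on the way to the ligand of EBI2, a receptor that positions B cells. It was at 312 and 146 CPM (log2 fold 1.09), while *Ch25h* itself was at 106 and 103 CPM (0.03), and *Hsd3b7*, which degrades the ligand, was at 22.6 and 16.1 CPM (0.49). *Clu*, a secreted chaperone known in follicular dendritic cells, was at 173 and 103 CPM (0.75).

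Other genes of the same list lay nearer to equal. *Cxcl12*, the ligand of CXCR4, was at 755 and 624 CPM (log2 fold 0.27), *Vcam1*, an adhesion molecule of lymphocytes, at 434 and 359 CPM (0.27), and *Icam1*, another, at 103 and 87.9 CPM (0.22). *Ccl19*, a ligand of CCR7, was at 48.8 and 38.6 CPM (0.34). These 4 did not pass 1.5-fold. *Il33*, a nuclear cytokine of stromal cells, was the lower member, at 389 and 623 CPM (-0.68). Some genes of the list were at or near 0: *Ccl21a* had no UMI in either group, and *Madcam1* and *Cr2* had UMIs in 0.0931% of Cxcl13-high cells and in none of the 861 Cxcl13-zero cells. The paper also found *Ccl21* in very few cells and believes this to be a technical issue, since other methods had detected it. The B cell survival factors *Tnfsf13b* (7.26 and 9.16 CPM) and *Tnfsf13* (14.0 and 6.81 CPM) were found in too few cells to be compared.

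*Saa3*, *Cd14*, *Csf3* and the complement gene *Cfb* were higher in Cxcl13-high cells. *Saa3*, a serum amyloid A protein induced in inflammation, took 22189.5 CPM in Cxcl13-high and 11441 CPM in Cxcl13-zero cells, a log2 fold of 0.96 (0.94 to 0.97). It was found in 99.6% and 98.1% of cells, so the groups differed in the amount per cell: the 10th percentile, median and 90th percentile were 31.8, 187 and 456 UMIs per 10000 in Cxcl13-high cells and 2.81, 62.8 and 304 in Cxcl13-zero cells. *Cd14*, the co-receptor for bacterial lipopolysaccharide, was at 253 CPM (243 to 263) and 111 CPM (104 to 119), a log2 fold of 1.19, and was found in 51.5% and 29.6% of thinned cells. *Csf3* encodes G-CSF, the growth factor of neutrophils. It was at 117 CPM (110 to 124) and 51.3 CPM (46.4 to 56.4), a log2 fold of 1.19, and was found in 28.5% and 13.1% of thinned cells. Among 10 complement and opsonin genes, all compared, 2 were higher and none lower, and 9 lay above 0. The pair were *Clu* and *Cfb*, factor B of the alternative pathway, at 781 and 493 CPM (0.66). *C3*, the central complement protein, was at 2933 and 2123 CPM (0.47), short of 1.5-fold.

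The chemokines did not move together. Of 20 other chemokine and atypical receptor genes 12 were compared, with 2 higher, 2 lower and a median log2 fold of 0.39. *Cxcl10* and *Cxcl9* both encode ligands of CXCR3, a receptor of activated T cells, and both are known as interferon-induced genes. *Cxcl10* was at 2103 CPM (2075 to 2131) in Cxcl13-high and 1308 CPM (1283 to 1333) in Cxcl13-zero cells, a log2 fold of 0.69. *Cxcl9* was at 416 CPM (404 to 429) and 814 CPM (795 to 834), a log2 fold of -0.97. They thus differed in opposite directions between the same cells. After thinning, *Cxcl10* was found in 80.8% of Cxcl13-high and 66.0% of Cxcl13-zero cells and *Cxcl9* in 27.7% and 38.7%. *Cxcl5*, a neutrophil attractant that binds CXCR2, was at 876 and 569 CPM (0.62), and the other CXCR2 ligands *Cxcl1* (1654 and 1265 CPM, 0.39) and *Cxcl2* (269 and 204 CPM, 0.40) did not pass 1.5-fold. *Cxcl14*, a chemokine of epithelia and fibroblasts, was lower at 38.0 and 97.9 CPM (-1.36), and in Cxcl13-zero cells 76.6% of its UMIs sat in the 5% of cells that held most. The monocyte attractants *Ccl2* (5167 and 3825 CPM, 0.43) and *Ccl7* (2056 and 1508 CPM, 0.45) did not pass. *Ccl24*, an eotaxin that acts on eosinophils and was in no list, was higher at 131 and 67.1 CPM (0.96), with 66.7% of its UMIs in the top 5% of Cxcl13-high cells.

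Antigen presentation and interferon genes were higher or near equal, seldom past 1.5-fold. Of 9 MHC class II genes 7 were compared, with 2 higher, none lower and a median log2 fold of 0.41. *H2-Aa* and *H2-Eb1*, chains of the class II molecules that present peptide to CD4 T cells, were at 529.6 and 336 CPM (0.65) and at 696 and 459 CPM (0.60). *Cd74*, the invariant chain, was at 2214 and 1540 CPM (0.52), and *H2-Ab1* at 654 and 494 CPM (0.41). Class II genes are also made by leukocytes: the summed immune markers (12 genes, 2 of them without a UMI) were at 65.1 CPM in Cxcl13-high and 54.8 CPM in Cxcl13-zero cells, and 34 and 31 cells held 3 or more UMIs of them. Their part in the class II values was not tested. *Ms4a1*, a marker of B cells, had no UMI in either group. None of 18 MHC class I genes passed 1.5-fold in either direction (median 0.13). None of 26 compared interferon-stimulated genes passed either, yet 25 of the 26 lay above 0, with a median of 0.29, where 46.5% of all compared genes lay above 0. The highest of these were *Gbp4* (161 and 112 CPM, 0.53) and *Gbp5* (85.0 and 58.7 CPM, 0.53), guanylate-binding proteins of cell defence. In the other libraries 18 of 25 interferon-stimulated genes (tdTomato+ eGFP+), 22 of 26 (tdTomatoneg eGFP+) and 16 of 26 (tdTomatoneg eGFPneg) lay above 0. Of all compared genes there, 44.6%, 41.6% and 39.5% did, in the same order. The median of the list was 0.04 in tdTomatoneg eGFPneg cells.

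Genes of the receptors and pathway that are known to induce *Cxcl13* seldom passed 1.5-fold. Of 22 lymphotoxin receptor, TNF receptor and NF-kB genes 19 were compared. Of these, 15 lay above 0, with a median of 0.16, where 46.5% of all compared genes lay above 0. In the other libraries 13 of 19 (tdTomato+ eGFP+), 13 of 19 (tdTomatoneg eGFP+) and 15 of 19 (tdTomatoneg eGFPneg) did. None of the 19 was lower here and 1 was higher. That gene was *Tnfrsf1b*, TNF receptor type II, at 38.1 and 25.4 CPM (log2 fold 0.59), a value at the limit. *Ltbr*, the lymphotoxin beta receptor, was at 34.2 and 39.9 CPM (-0.22), *Tnfrsf1a*, TNF receptor type I, at 132 and 118 CPM (0.16), and the NF-kB subunits *Nfkb2* (32.7 and 29.2 CPM, 0.16) and *Relb* (44.5 and 42.7 CPM, 0.06) lay near 0. Of 28 cytokine receptor and signalling genes 26 were compared, none was higher and 1 was lower, *Tnfrsf11b*, the decoy receptor osteoprotegerin, at 77.7 and 130.1 CPM (-0.74). Transcript levels say nothing of receptor signalling.

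Matrix genes were among the lower genes. Of 31 matrix genes 30 were compared, none was higher and 12 were lower, where 2.33% of all compared genes were, and 5 of the 30 lay above 0. In the other libraries 16 of 30 (tdTomato+ eGFP+), 3 of 27 (tdTomatoneg eGFP+) and 8 of 31 (tdTomatoneg eGFPneg) were lower. Of all compared genes there 11.4%, 7.23% and 5.86% were, in the same order. *Tnc* encodes tenascin C, a matrix glycoprotein of wounds and tumor stroma. Its level was 114 CPM (108 to 121) in Cxcl13-high and 459 CPM (444 to 474) in Cxcl13-zero cells, a log2 fold of -2.01 (-2.10 to -1.91), and it was found in 20.8% and 44.4% of thinned cells. *Postn*, periostin, was at 82.8 and 212 CPM (-1.36), *Thbs2*, thrombospondin 2, at 13.0 and 29 CPM (-1.16), and *Col15a1*, a basement membrane collagen, at 152 and 319 CPM (-1.07). The crosslinking enzymes *Lox* (209 and 385 CPM, -0.88) and *Loxl2* (229 and 351 CPM, -0.61) were lower as well. So were the collagen chains *Col12a1* (139 and 235 CPM, -0.76), *Col6a3* (250.5 and 394 CPM, -0.65), *Col4a1* (430.2 and 661 CPM, -0.62), *Col4a2* (186 and 284 CPM, -0.61) and *Col5a1* (352 and 532 CPM, -0.59), and the hyaluronan synthase *Has2* (22 and 35 CPM, -0.67). In cells with a share of mesothelial UMIs above the median, *Col6a3* had a log2 fold of -0.017, *Postn* of -0.16, *Col4a1* of -0.27, *Col4a2* of -0.33, *Loxl2* of -0.41 and *Col5a1* of -0.46, none past 1.5-fold. *Col1a1*, which was part of the filter, was at 4521 and 6962 CPM (-0.62). *Dcn* was at 4370 and 3461 CPM (0.34) and *Fn1*, fibronectin, at 2761 and 3062 CPM (-0.15), neither past 1.5-fold, so the difference did not extend to every matrix gene.

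**Figure D3:**
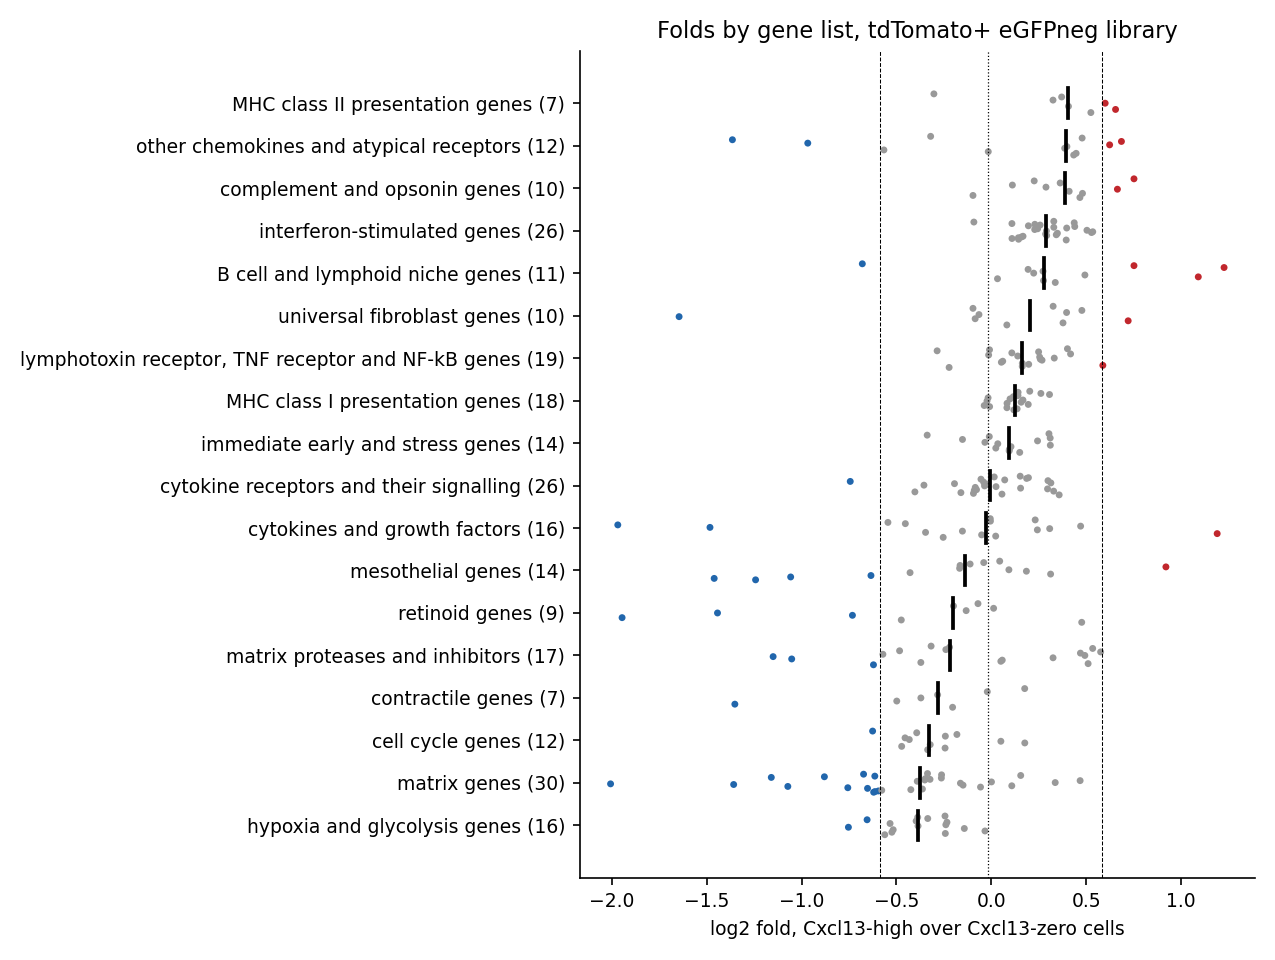
Log2 fold of Cxcl13-high over Cxcl13-zero cells for the compared genes of 18 gene lists in the tdTomato+ eGFPneg library, 1 point per gene (red higher, blue lower, grey between; number compared in brackets). Black bars are list medians, dashed lines the 1.5-fold limits and the dotted line the median of all compared genes; interferon-stimulated genes lie above 0 in 25 of 26 cases, hypoxia genes below 0 in all 16, and matrix genes have a median of -0.38.

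*Cthrc1* was the lowest of all compared genes. It encodes a secreted collagen-triple-helix protein known as a mark of matrix-producing fibroblasts in fibrosis and tumors. Its level was 12.9 CPM (10.8 to 15.3) in Cxcl13-high and 119.96 CPM (113 to 128) in Cxcl13-zero cells, a log2 fold of -3.22 (-3.49 to -2.96), or 9.32-fold. It was found in 4.75% of thinned Cxcl13-high and 23.5% of thinned Cxcl13-zero cells, so most cells of both groups had none. Members of the TGF-beta family differed in direction. *Inhba*, the subunit of activin A, was lower at 46.0 and 179.9 CPM (-1.97), as was *Tgfb1* at 9.97 and 27.8 CPM (-1.48). *Tgfb2* lay above 0 at 60.2 and 43.5 CPM (0.47), short of 1.5-fold. Of 28 cytokine and growth factor genes 16 were compared. *Csf3* was higher, and *Inhba* and *Tgfb1* were the only 2 that were lower. *Il6* was at 184 and 219 CPM (-0.25) and *Vegfa* at 199 and 253 CPM (-0.35). *Ccn2* and *Ccn4*, secreted matricellular proteins known as TGF-beta and Wnt targets, were at 30.5 and 91.6 CPM (-1.59) and at 26.8 and 67.6 CPM (-1.33). *Adam12*, a membrane metalloprotease, was at 73.4 and 171 CPM (-1.22).

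Some retinoid enzymes, protease inhibitors and microfibril genes were also lower. Of 13 retinoid genes 9 were compared, none was higher and 3 were lower. *Aldh1a3*, which makes retinoic acid, was at 59.4 and 229 CPM (-1.95), and *Crabp2*, which carries it, at 36.3 and 98.7 CPM (-1.44). The related enzyme *Aldh1a2* was at 183 and 254 CPM (-0.47) and *Aldh1a1* at 79.6 and 57.2 CPM (0.48), neither past 1.5-fold. Of 22 matrix protease and inhibitor genes 17 were compared and 3 were lower. *Timp1*, an inhibitor of metalloproteases, was at 3559 CPM (3523 to 3596) and 7379 CPM (7320 to 7439), a log2 fold of -1.05, and nearly all cells of both groups had it: the median cell held 19.4 and 50.5 UMIs per 10000. *Timp3* was at 273 and 605 CPM (-1.15) and *Mmp2*, a gelatinase, at 40.2 and 61.8 CPM (-0.62), while *Timp2* was at 864 and 690 CPM (0.33). *Timp3* lies inside *Syn3*, on the opposite strand, and *Syn3* was lower too, at 12.3 and 28.6 CPM (-1.22); how the counting divided reads between them was not checked. *Mfap5*, a microfibril protein of the universal fibroblast list, was at 163 and 509.8 CPM (-1.65), and *Clec3b*, tetranectin, of the same list, was higher at 142 and 85.9 CPM (0.72), with 10 of its 12 genes compared.

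Contractile and mesothelial genes differed in part, beside traces of pericyte markers. Of 12 contractile genes 7 were compared and 1 was lower, *Tagln*, an actin-binding protein, at 168 and 429.5 CPM (-1.35), while *Acta2*, smooth muscle actin, was at 547.5 and 631 CPM (-0.20). Pericyte markers, 6 genes, summed to 7.74 CPM in Cxcl13-high and 27.7 CPM in Cxcl13-zero cells, and 2 and 16 cells held 3 or more UMIs of them. Of 21 mesothelial genes 14 were compared, with 1 higher and 4 lower, where 1.55% and 2.33% of all compared genes were. The 21 genes together had 3 or more UMIs in 958 Cxcl13-high cells (89.2%) and 682 Cxcl13-zero cells (79.2%). Their UMIs were thus in most cells of both groups. *Upk1b* (23 and 63.4 CPM, -1.46) and *Upk3b* (23.1 and 54.7 CPM, -1.24), uroplakins of mesothelium, *Krt19*, a keratin (36.6 and 76.1 CPM, -1.06), and *Lrrn4* (25.8 and 40.1 CPM, -0.63) were the lower members. *Cldn10*, a claudin, was higher at 19.0 and 10.0 CPM (0.92). *Wt1*, a transcription factor of mesothelium, was at 225 and 181 CPM (0.31) and *Msln*, mesothelin, was found in 3.26% and 5.81% of cells, too few to be compared. Of the *Upk1b* UMIs 67.4% sat in the top 5% of Cxcl13-zero cells. The part that single mesothelial or mural cells had in these values was not tested.

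Hypoxia and cell cycle genes lay mostly below 0. This held for all 16 compared hypoxia and glycolysis genes, with a median of -0.39, where 46.5% of all compared genes lay above 0, and 2 were lower past 1.5-fold, where 2.33% of all compared genes were: *Ndrg1* at 122 and 205 CPM (-0.75) and *Ankrd37* at 13.8 and 21.8 CPM (-0.65), both known targets of hypoxia. *Pgk1*, a glycolytic enzyme, was at 416 and 598 CPM (-0.52). The direction was not shared by every gene in every set of cells. In cells with UMIs of a Y gene and none of *Xist*, *Egln3* had a log2 fold of 0.69 (0.44 to 0.95), *Adm* 0.59 (0.26 to 0.92) and *Hk2* 0.20. In the other libraries 5 of 15 (tdTomato+ eGFP+), 5 of 17 (tdTomatoneg eGFP+) and 5 of 17 (tdTomatoneg eGFPneg) lay above 0, with medians of -0.15, -0.08 and -0.34. Of all compared genes there 44.6%, 41.6% and 39.5% lay above 0, in the same order. Of 12 cell cycle genes, all compared, 10 lay at or below 0 and *Ube2c*, a ubiquitin-conjugating enzyme of mitosis, was lower, at 141 and 217 CPM (-0.63). The share of cells with a UMI of any of 7 cycling genes was 42.2% in Cxcl13-high and 47.4% in Cxcl13-zero cells. None of 14 immediate early and stress genes passed 1.5-fold (median 0.09).

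Outside the lists, the 15 genes of highest fold were led by *Nr1h4*, the bile acid receptor FXR, at 20.1 and 6.81 CPM, a log2 fold of 1.56 (1.13 to 2.02). It was found in 8.57% and 3.72% of thinned cells, so few cells carried the difference. *Col6a5* and *Col6a6*, chains of collagen VI, followed at 112 and 47.2 CPM (1.24) and at 27.9 and 13.1 CPM (1.09), opposite in direction to *Col6a3*. *Col6a6* had a log2 fold of 0.14 (-0.80 to 1.12) in cells with *Xist* and no Y gene and 1.61 in cells with a Y gene and no *Xist*. Among the others were enzymes and a transporter: *Maob*, a monoamine oxidase (16.8 and 7.92 CPM, 1.09), *Slc7a8*, an amino acid transporter (22.6 and 10.8 CPM, 1.07), *Folh1*, a glutamate carboxypeptidase (18.8 and 9.04 CPM, 1.06), *Gdpd2*, a glycerophosphodiesterase (37.0 and 19.1 CPM, 0.96), *Nme4*, a nucleoside diphosphate kinase (15.8 and 8.29 CPM, 0.93), and *Npl*, which cleaves sialic acid (70.3 and 37.1 CPM, 0.92). The remaining higher genes were *Nrxn2*, a neurexin (21.6 and 10.8 CPM, 1.00), *Sned1*, a matrix glycoprotein (78.3 and 39.1 CPM, 1.00), and *Nhs*, a regulator of actin (57.3 and 29.5 CPM, 0.96), besides *Cd14*, *Ccl24* and *Saa3*.

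The 15 lowest genes outside the lists included a few that rested on few cells. *Spp1*, osteopontin, was at 77.8 and 325 CPM (-2.06), and 95.1% of its UMIs in Cxcl13-high and 85.5% in Cxcl13-zero cells sat in the 5% of cells that held most. Melanoma markers, 7 genes, summed to 27.6 CPM in Cxcl13-high and 82.0 CPM in Cxcl13-zero cells, with 3 or more UMIs in 13 and 20 cells. *Sparcl1*, hevin, at 22.5 and 96.6 CPM (-2.10), and *Ccn2* were held by few cells in the same way, with 72.2% and 76.9% of their Cxcl13-zero UMIs in the top 5%. More widely spread were *Ncam1*, a cell adhesion molecule (54.9 and 133 CPM, -1.28), *Ebf1*, a transcription factor of mesenchyme (82.6 and 195 CPM, -1.24), and *Adam12*. The others were *Nrep* (17.7 and 64.2 CPM, -1.86), *Pappa*, a protease of IGF-binding proteins (17 and 59.6 CPM, -1.81), *Aldh1l2*, a mitochondrial folate enzyme (9.87 and 32.6 CPM, -1.72), *Bcat1*, a branched-chain aminotransferase (15.3 and 40.9 CPM, -1.42), *Crispld2*, a secreted protein (11.4 and 29 CPM, -1.34), and *Pla1a*, a phospholipase (19.5 and 45.9 CPM, -1.24).

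The 987 cells that neither group used show whether levels between the extremes were intermediate. Kept cells were set in 5 steps of *Cxcl13* UMIs: 861 cells with 0, 522 with 1 to 2, 465 with 3 to 9, 482 with 10 to 29 and 592 with 30 or more. *Enpp2* was at 145, 206, 260.3, 312 and 362 CPM over these steps. *Cthrc1* was at 119.96, 69.6, 35.7, 16.5 and 9.98 CPM, and *Tnc* at 459, 358, 233, 148 and 87.0 CPM. These 3 were ordered at every step, and the intervals of neighbouring steps did not overlap in any of them. Of the 75 named genes, 18 of 27 higher and 30 of 48 lower ones were ordered at every step. The steps of 0, of 10 to 29 and of 30 or more UMIs are the cells by which these genes were called. Their order was thus partly set by the choice, and no share over all compared genes was computed. *Saa3* had overlapping intervals at 3 to 9 and 10 to 29 UMIs (18910.4 and 19039 CPM) and stood at 24736 CPM in the last step. *Cxcl9* fell to 396 CPM at 10 to 29 UMIs and stood at 433 CPM above that, so it was not ordered throughout.

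**Figure D4:**
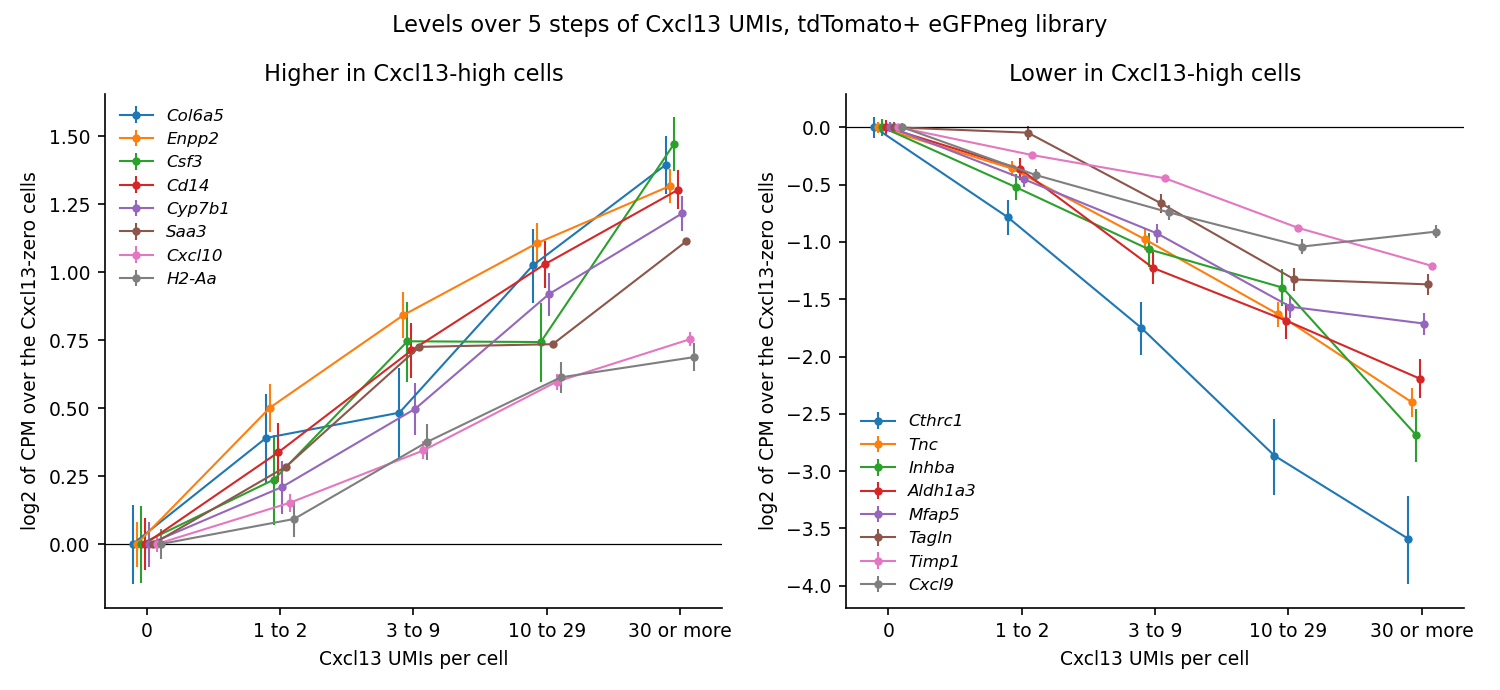
Log2 ratio of the CPM at each of 5 steps of *Cxcl13* UMIs per cell to the CPM of the Cxcl13-zero cells, for 8 higher (left) and 8 lower genes (right) of the tdTomato+ eGFPneg library, with exact 95% Poisson intervals of the CPM as bars. *Enpp2* goes from 145 to 362 CPM and *Cthrc1* from 119.96 to 9.98 CPM, each in order at every step, while *Cxcl9* turns upward at the last.

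The cells with 3 to 9 and with 1 to 2 UMIs were not used to call the genes above, and the same direction was read in them. In the 465 against the 522 cells, 94 of the 114 higher genes lay above 0 (82.5%, against 45.7% of all compared genes) with a median log2 fold of 0.18, and 137 of the 172 lower genes lay below 0 (79.7%, against 54.3%) with a median of -0.24. *Saa3* was at 0.44, *Cd14* at 0.37 and *Enpp2* at 0.34 in this comparison, and *Sparcl1* at -1.42, *Cthrc1* at -0.96 and *Aldh1a3* at -0.87. *Pappa* (-0.02), *Crispld2* (0.03), *Mmp2* (0.04) and *Ndrg1* (0.04) were near 0 there. *Krt19* (0.19), *Ube2c* (0.15), *Tnfrsf11b* (0.14) and *Maob* (-0.10) lay on the other side of 0.

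The other 3 libraries, whose cells had no part in the choice of genes, were read by the same filters and thresholds. They held fewer Cxcl13-high cells: 79 against 237 Cxcl13-zero cells in tdTomato+ eGFP+, 148 against 2334 in tdTomatoneg eGFP+, and 190 against 3562 in tdTomatoneg eGFPneg cells. Of the 114 higher genes, 95, 90 and 79 were compared there, in the same order, and 43, 42 and 39 were also called higher, where 5.73%, 3.15% and 3.12% of all compared genes were. Of the 172 lower genes, 162, 143 and 155 were compared and 118, 68 and 77 were also called lower, where 11.4%, 7.23% and 5.86% of all compared genes were. The opposite call was given to 1, 0 and 2 of the higher and to 1, 0 and 3 of the lower genes. The higher genes had medians of 0.51, 0.54 and 0.58 and the lower genes of -0.88, -0.55 and -0.58. The libraries are different populations, possibly of the same tumors, and not replicates.

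Single genes show how far the direction held. *Csf3* was at 190.1 and 47.6 CPM in tdTomato+ eGFP+ cells, 143 and 61.6 CPM in tdTomatoneg eGFP+ cells and 151 and 44.1 CPM in tdTomatoneg eGFPneg cells, higher in Cxcl13-high cells in all. *Enpp2* had log2 folds of 1.29, 1.08 and 1.36 and *Col6a5* of 1.34, 1.24 and 1.20 in the same order. *Tnc* had -2.29, -1.87 and -2.0, *Cthrc1* -3.79, -2.32 and -1.82, and *Tagln* -2.67, -2.68 and -1.91. *Cyp7b1* was past 1.5-fold in both tdTomatoneg libraries (1.53 and 1.10) and not in tdTomato+ eGFP+ cells (0.27). *Cxcl10* kept its sign but did not pass (0.27, 0.32 and 0.58), nor did *H2-Aa* in the tdTomatoneg libraries (0.35 and 0.38). *Cxcl9* had -2.10, -0.97 and -0.21 in the same order. Of all compared genes 44.6%, 41.6% and 39.5% lay above 0 in these libraries and 55.4%, 58.4% and 60.5% below it, in the same order. The share of all genes with the same sign in all 4 libraries was not computed. Of the named genes 21 of 27 higher and 42 of 48 lower ones had the same sign in all 4 libraries. The other 12 were *Slc7a8*, *Nrxn2*, *Nhs*, *Tnfrsf1b*, *Clec3b* and *Cldn10* among the higher and *Aldh1l2*, *Ankrd37*, *Mmp2*, *Col12a1*, *Cxcl14* and *Il33* among the lower genes, and *Il33* had the opposite sign in both tdTomatoneg libraries (0.44 and 0.91). Differences between libraries were not tested.

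**Figure D5:**
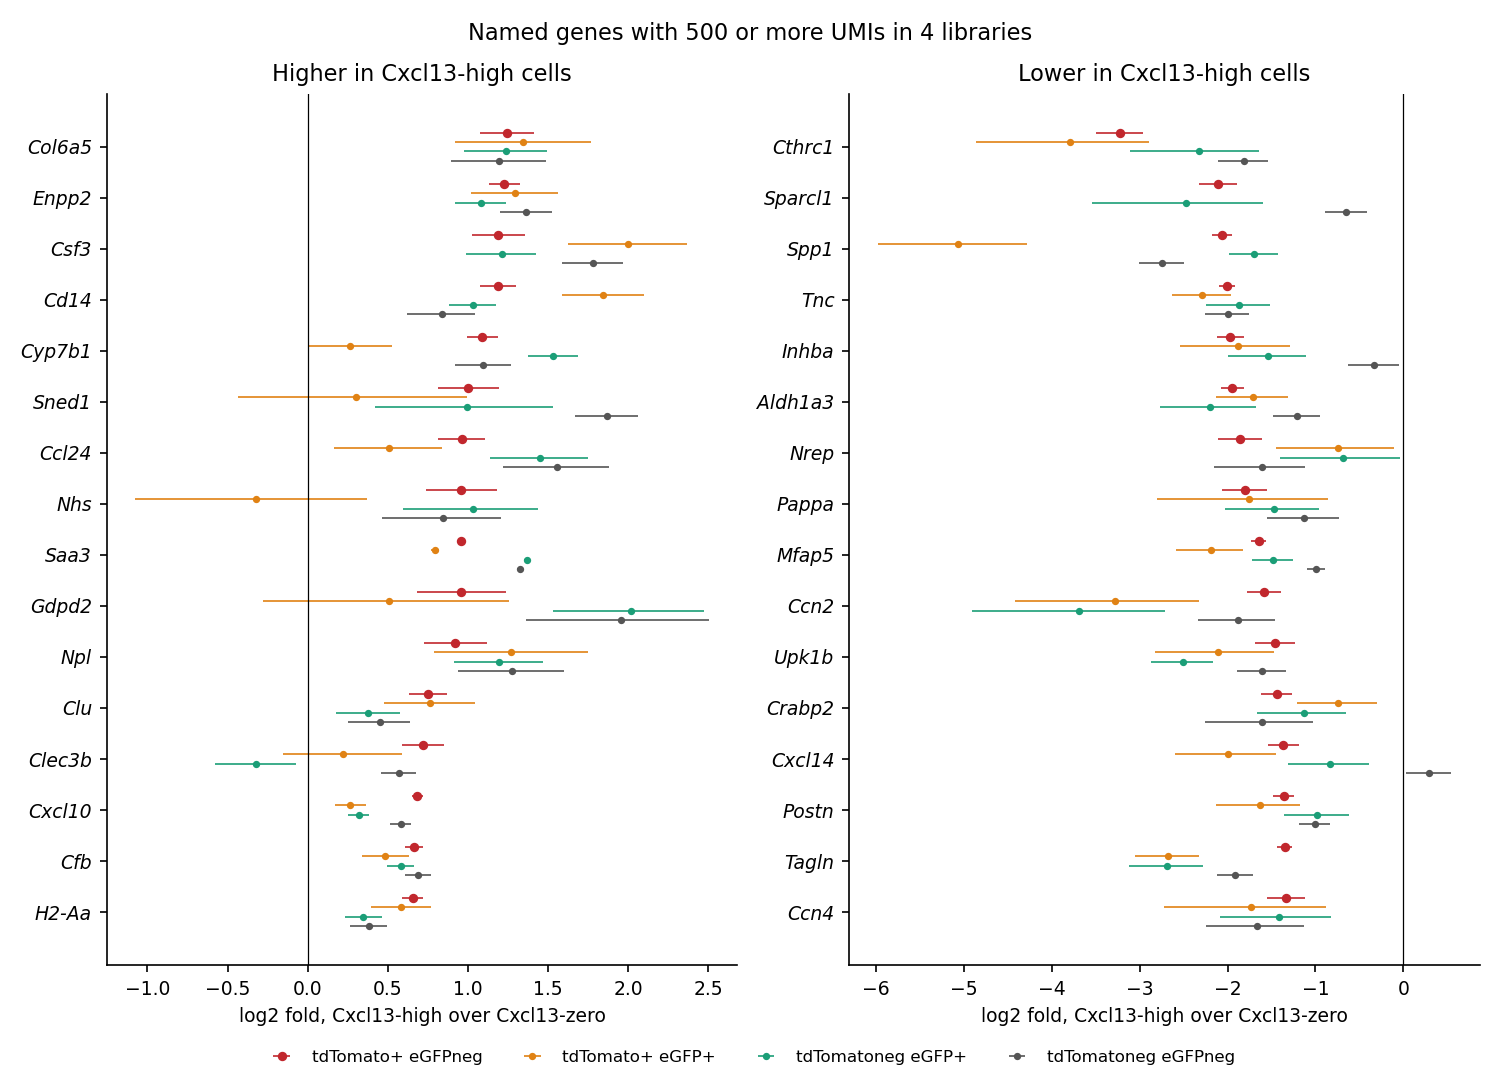
Log2 fold of Cxcl13-high over Cxcl13-zero cells of 16 higher (left) and 16 lower (right) named genes with 500 or more UMIs, in the 4 libraries (colours), with exact 95% intervals of counting error as bars. *Tnc* lies near -2 in all 4, *Clec3b* and *Cxcl14* lie on both sides of 0, and *Sparcl1* has no point for tdTomato+ eGFP+ because the 79 Cxcl13-high cells there had no UMI of it.

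Since both sexes were mixed in the library, the comparison was repeated in cells of either sex mark. The 458 Cxcl13-high and 346 Cxcl13-zero cells with *Xist* and no Y gene had 114 of the 114 higher and 168 of the 172 lower genes on the same side of 0, with medians of 0.59 and -0.69. In the 245 and 208 cells with a Y gene and no *Xist* these were 112 and 166, with medians of 0.85 and -0.96. These cells are part of the groups that called the genes, so the shared direction is a description. Sizes differed between the marks. *Saa3* had a log2 fold of 0.50 in *Xist* cells and 1.79 in Y gene cells, *Cd14* 0.82 and 2.36, *H2-Aa* 0.36 and 1.08, *Cxcl9* -0.28 and -1.51, and *Mfap5* -0.67 and -2.40. *Postn* was at -0.21 (-0.44 to 0.02) and *Sparcl1* at -0.33 (-0.83 to 0.18) in *Xist* cells and at -2.03 and -2.74 in Y gene cells. *Clec3b* lay on opposite sides, 0.93 and -0.33 (-0.69 to 0.03), and *Ncam1* (-1.76 and -0.49), *Sned1* (1.18 and 0.26) and *Col12a1* (-1.04 and -0.20) were closer to 0 in Y gene cells. *Timp1* (-0.97 and -0.98), *Lox* (-0.84 and -0.80) and *Enpp2* (1.04 and 1.32) were close in both. The marks cannot be told apart from the animals and tumors that the cells came from.

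Finally, 5 of the lower genes, chosen after their values were seen, were read together in single cells thinned to 5000 UMIs: *Cthrc1*, *Tnc*, *Inhba*, *Aldh1a3* and *Postn*. All 5 had been called lower in these same cells. The direction of the group difference in the next shares was thus set by the choice. No share expected from the single genes was computed. Of the Cxcl13-zero cells 216, or 25.1% (22.2 to 28.1), had 3 or more of the 5, and of the Cxcl13-high cells 50, or 4.66% (3.47 to 6.09). None of the 5 was found in 28.6% of Cxcl13-zero and 51.6% of Cxcl13-high cells. Among Cxcl13-zero cells *Tnc* was found in 73.8% (67.1 to 79.7) of the 202 with *Cthrc1* and in 35.4% (31.7 to 39.1) of the 659 without. *Aldh1a3* was found in 50.5% and 24.0% of the same cells. *Enpp2* was found in 22.8% (17.2 to 29.2) and 41.3% (37.5 to 45.1). *Csf3* (4.95% and 15.6%), *Col6a5* (6.44% and 13.7%) and *Cd14* (17.3% and 33.4%) were also found less often in the cells with *Cthrc1*. *Cyp7b1* was found in 33.2% (26.7 to 40.1) and 36.6% (32.9 to 40.4), intervals that overlap. In Cxcl13-high cells *Enpp2* was found in 58.8% (44.2 to 72.4) of 51 cells with *Cthrc1* and 64.4% (61.4 to 67.4) of the other 1023, intervals that overlap.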

How the data were processed

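The tdTomato+ eGFPneg library was the main sample and the other 3 libraries were read alongside it. The authors deposited UMI counts per gene and cell barcode, not normalized, for 33696 genes; barcode and feature names were deposited as plain lists. Their notes name Cell Ranger 10.0.0, STAR, Seurat 5.0 and GRCm39, and the matrix headers name Cell Ranger 8.0.0. All columns were used. Cells with 500 to 6000 genes (5026), at most 10% mitochondrial UMIs (4952), no *Ptprc* (4759) and no *Pax3* UMI (4692), 3 or more collagen UMIs (4634) and 5000 to 15000 UMIs (2922) were kept. The library held 52046896 UMIs, and total depth and the cell number set the precision.

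UMIs were summed and folds computed with Python 3.11.15, numpy 2.4.6, scipy 1.17.1 and pandas 2.3.3. Intervals of folds condition on both sums. The summing was tested on simulated data. Thinning used seed 1. No test was run because each population is 1 library. Named were 45 list genes past 1.5-fold with 200 or more UMIs and the 15 highest and 15 lowest genes outside the lists, without unnamed gene models; a few of the list genes are not reported here. Members, lists and the rule were chosen with earlier results of these data known. Doublets were treated in an alternative only (Scrublet in scanpy 1.11.5). Alternatives changed thresholds, depth limits, denominators, filters and cell subsets. The authors' marker tests across cells were not repeated.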

Additional observations from a re-analysis of the deposited data

Results flagged for a closer look

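*Il33* differed in direction between libraries. Its log2 fold in Cxcl13-high over Cxcl13-zero cells was -0.68 in the tdTomato+ eGFPneg library and 0.91 (0.82 to 1.01) in the tdTomatoneg eGFPneg library, where it was at 578 and 307 CPM. It was -0.54 in tdTomato+ eGFP+ and 0.44 in tdTomatoneg eGFP+ cells, so both tdTomato+ libraries lay below 0 and both tdTomatoneg libraries above it. The difference between libraries was not tested, since each population is 1 library.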

How the results depend on the processing

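The counts of 114 higher and 172 lower genes were recomputed under 17 other settings and 1 more chosen after seeing the data. Against cells with 1 to 2 *Cxcl13* UMIs, 76 genes were higher and 111 lower, of which 40 and 80 were shared with the reported 114 and 172. In a narrower window of total UMIs per cell 176 genes were higher, and in *Xist* cells alone 195, both with fewer cells. In Y gene cells alone 438 were higher and 589 lower. Among cells with a mesothelial share at or below the median 197 were higher. With genes found in at least 2% of cells, which admits sparser genes, 415 were higher and 558 lower. The cause of the other moves was not tested. In the added alternative, cells with no UMI of melanoma (*Mitf* aside), immune, endothelial or pericyte markers (648 and 476 cells), 145 were higher and 167 lower, of which 82 and 120 were shared with the reported genes. In *Xist* cells 49.9% of calls were higher, against 39.9% as reported.

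Of the 75 named genes, 71 kept their sign in all 17 alternatives run on single genes and 31 stayed past 1.5-fold in all. In Y gene cells *Ankrd37* had a log2 fold of 0.14 and *Clec3b* of -0.33, and in cells with a mesothelial share at or below the median *Lrrn4* had 0.072 and *Upk3b* 0.87. Leaving out the 225 barcodes with the highest doublet scores removed 109 kept cells and gave 117 higher and 183 lower genes.

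No paired analysis was possible because each population is 1 library and no result comes from a test. Low counts limit genes near 10 CPM, and a count of 0 *Cxcl13* UMIs does not show absence.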

Other observations

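Further gene groups, put together after the values were seen, are given as values. Members were picked with the values known, so the shares of all compared genes give no test of these counts. Among 16 iron and copper handling genes 14 were compared, 4 were higher in Cxcl13-high cells and none lower, where 1.55% and 2.33% of all compared genes were. *Fth1*, the ferritin heavy chain that stores iron, was at 31343 CPM in Cxcl13-high and 18804 CPM in Cxcl13-zero cells, a log2 fold of 0.74. *Trf*, transferrin, was at 1076 and 624 CPM (0.79), *Cp*, the copper-carrying ferroxidase ceruloplasmin, at 512 and 306 CPM (0.74), and *Steap4*, a metalloreductase, at 251 and 158 CPM (0.67). *Ftl1*, the ferritin light chain, was at 1286 and 1268 CPM (0.02), so the ferritin chains differed.

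Among 20 genes of serine, one-carbon and amino acid synthesis 15 were compared, 6 were lower and none higher, and 1 lay above 0, where 2.33% of all compared genes were lower, 1.55% higher and 46.5% above 0. The 6 include *Aldh1l2* and *Bcat1*, already named among the 15 lowest genes outside the lists. *Mthfd2*, a mitochondrial folate enzyme, was at 13.2 and 25.6 CPM (-0.96), *Pycr1*, of proline synthesis, at 11.2 and 19.9 CPM (-0.83), and *Asns*, asparagine synthetase, at 11.2 and 17.9 CPM (-0.68). In tdTomatoneg eGFP+ cells *Pycr1* (-0.57) and *Asns* (-0.25) did not pass 1.5-fold, and *Aldh1l2*, found in too few cells there to be compared, was at 0.50. *Atf4*, a transcription factor known to drive these genes, was at 93.2 and 108 CPM (-0.21). Of 10 IGF genes 8 were compared, with 1 higher and 2 lower against the same shares: *Igfbp4* was higher at 773 and 503 CPM (0.62), and *Igfbp3* (81.5 and 155 CPM, -0.93) and *Igfbp5* (25.1 and 44.2 CPM, -0.82) were lower. *Igfbp4* did not pass 1.5-fold in tdTomato+ eGFP+ (0.29), tdTomatoneg eGFP+ (0.36) or tdTomatoneg eGFPneg cells (0.58). *Igfbp3* was at -0.89, 0.03 and -1.11 and *Igfbp5* at -2.51, -1.39 and -0.79 in the same order. Of the *Igfbp5* UMIs in Cxcl13-zero cells 76.8% sat in the top 5% of cells.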
